A study of Mus musculus with 12 samples.

Results

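The transcripts of 10 genes of the ADAMTS family were examined in mouse mesangial cells (MMC), 5 secreted proteases (Adamts1, Adamts4, Adamts5, Adamts9 and Adamts12) and 5 ADAMTS-like genes (Adamtsl1, Adamtsl2, Adamtsl3, Adamtsl4 and Adamtsl5). They were chosen by gene symbol from the 25230 genes counted, and all 10 were listed in every library. The RNA came from cultured kidney MMC of wild-type (WT) mice and of the lncMGC-KO5 mouse line (KO), in which CRISPR-Cas9 editing removed a short stretch next to the transcription start of lncMGC, the long non-coding RNA that hosts a large cluster of microRNAs. Cells of each genotype were either serum-depleted (SD) without TGF-β or received 10 ng/ml of TGF-β for 24 h, which gave 4 groups with 3 libraries each, named WT-SD and WT-TGF for the WT cells and KO-SD and KO-TGF for the KO cells. The KO cells come from 1 mutant line, MMC were prepared from pooled glomeruli, and the age and number of mice per genotype are not given in the sources used here, so that genotype and differences between cell preparations cannot be told apart. The libraries of a group are described as independent samples, but whether they came from separate mice or cultures is not given in the sources used here, and the p-values measure only the spread between these libraries, which may in part be technical.

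ADAMTS proteins (a disintegrin and metalloproteinase with thrombospondin motifs) are zinc metalloproteases that cells secrete into the extracellular matrix. ADAMTS1, ADAMTS4, ADAMTS5 and ADAMTS9 cleave large proteoglycans such as versican and aggrecan, and ADAMTS12 is known for cleaving cartilage oligomeric matrix protein. ADAMTS-like proteins share the thrombospondin repeats but lack the protease part, and several of them bind fibrillin microfibrils, the fibers that also hold latent TGF-β. Mesangial cells support the capillaries of the glomerulus and make the mesangial matrix, which expands in diabetic kidney disease, and TGF-β is a main inducer of that matrix.

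The depth was similar in all libraries, between 19898050 and 22827706 counts on genes. Within a group, libraries differed from each other by more than counting noise, and in the 12 pairs compared the chi-square statistic divided by its degrees of freedom ranged from 1.35 to 5.41. The highest values were those of KO-SD replicate 1 against replicates 2 and 3 (5.41 and 5.1). Without that library, the sign of 1 member changed (Adamtsl4 in KO-TGF vs. KO-SD, given below with its values), and its response in WT passed the threshold. lncMGC was not among the counted genes, so the deletion itself was not checked in these libraries, and "KO" stands for the libraries so labelled. As a check of the treatment, 7 of 7 common TGF-β targets were higher after TGF-β in both genotypes, as were 35.9% of all genes tested in WT and 35.0% in KO. All 8 mesangial markers were above 3 counts in at least 1 library of every group, although desmin (Des) was at 0.529 ± 0.0234 CPM in KO-SD against 7.68 ± 0.949 CPM in WT-SD (SD, n = 3).

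The catalytic part is what separates the proteases from the ADAMTS-like genes, and the coding stretch of the zinc-binding signature is therefore shown for the 5 proteases. It was read from the coding transcripts of GENCODE vM21, 5′ to 3′ on the coding strand, and the capitals mark the 3 codons of the histidines that hold the zinc ion.
Adamts1: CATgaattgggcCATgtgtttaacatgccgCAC
Adamts4: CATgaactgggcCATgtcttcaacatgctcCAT
Adamts5: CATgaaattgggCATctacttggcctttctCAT
Adamts9: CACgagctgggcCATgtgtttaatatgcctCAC
Adamts12: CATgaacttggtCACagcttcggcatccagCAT
The stretch was found once in each of the 5 proteases and in none of the 5 ADAMTS-like genes. In GRCm38 it spans an exon junction in all 5 genes, at chr16:85799191-85799545 in Adamts1 (exons 3 and 4, minus strand), chr1:171253210-171253915 in Adamts4 (exons 3 and 4, plus strand), chr16:85878015-85887826 in Adamts5 (exons 2 and 3, minus strand), chr6:92905285-92908493 in Adamts9 (exons 8 and 9, minus strand) and chr15:11241529-11255564 in Adamts12 (exons 7 and 8, plus strand). These intervals include the intron between the exons. Adamts1 and Adamts9 were the closest pair, with 28 of 33 bases identical, and Adamts9 and Adamts12 the most distant, with 17 of 33. The eighth codon was aac or aat in Adamts1, Adamts4 and Adamts9 and ggc in Adamts5 and Adamts12, so that both forms occurred among the genes that fell and among those that rose with TGF-β.

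Most members responded to TGF-β, and the same 4 genes rose and the same 5 fell in both genotypes. A gene was called when its false discovery rate (FDR, Benjamini-Hochberg over all genes tested) was below 5% in the quasi-likelihood test of edgeR. In WT-TGF vs. WT-SD, Adamts4, Adamts12, Adamtsl2 and Adamtsl3 were higher, Adamts1, Adamts5, Adamts9, Adamtsl1 and Adamtsl5 were lower, and Adamtsl4 did not pass. Of all 11477 genes tested, 72.5% were called in this comparison, 35.9% higher and 36.5% lower, so that 9 of 10 called members stand against a high background. With a fold change >2 in addition, 4 members were higher and 4 lower, against 4.19% and 5.67% of all genes. In KO-TGF vs. KO-SD, 4 members were again higher and 5 lower, where 74.0% of all genes were called (35.0% higher, 39.0% lower), and 3 and 4 of them passed a fold change >2, against 4.42% and 9.04% of all genes. Over the 10 members the median was -0.20 on the log2 scale in WT and -0.33 in KO, against -0.0057 and -0.024 over all genes. Adamtsl1 stayed under the expression limit (RPKM >1 in at least 1 library) and was read from the fit of all 18565 genes with a count, in which 51.6% of genes were called in WT and 52.3% in KO. Adamtsl2 passed that limit only through WT-TGF, the group where it is highest, and its call is part of how it was selected.

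The genotypes also differed. In KO-SD vs. WT-SD, 4 members were higher (Adamts4, Adamts12, Adamtsl1 and Adamtsl3) and 5 lower (Adamts1, Adamts5, Adamts9, Adamtsl4 and Adamtsl5), while 55.9% of all genes were called, 30.6% higher and 25.3% lower. In the fit of all genes with a count, from which Adamtsl1 was read, 41.3% were called. In KO-TGF vs. WT-TGF, 2 members were higher (Adamts12 and Adamtsl3), 5 lower (Adamts1, Adamts5, Adamts9, Adamtsl2 and Adamtsl5) and 3 not called, while 55.1% of all genes were called, 27.3% higher and 27.9% lower (39.0% in the fit of all genes with a count). Adamtsl2 entered this test only through WT-TGF, the higher group, so that its place among the 5 is part of how it was selected. Over all 10 members the median log2 fold change in KO-TGF vs. WT-TGF was -0.38, against -0.0036 for all genes. In KO-SD vs. WT-SD it was 0.0087, against 0.018 for all genes. The interaction, the response of KO cells to TGF-β minus that of WT cells, was called below 0 in 7 members and above 0 in 1. Of all genes 25.4% were called in this test, 16.6% below and 8.77% above 0 (17.3% in the fit of all genes with a count). A value below 0 means a deeper fall for Adamts1, Adamts5, Adamtsl1 and Adamtsl5, and a smaller rise for Adamts4, Adamts12 and Adamtsl3. The libraries of the groups did not overlap in 9 of 10 members in WT-TGF vs. WT-SD, in KO-TGF vs. KO-SD and in KO-SD vs. WT-SD, and in 7 of 10 in KO-TGF vs. WT-TGF, and the same was true of 75.2%, 74.3%, 59.2% and 61.6% of all genes. An exact permutation test of 3 against 3 libraries cannot go below p = 0.1 for a single gene. In these bulk samples, fewer cells that express a gene and less RNA per cell cannot be told apart.

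**Figure D1:**
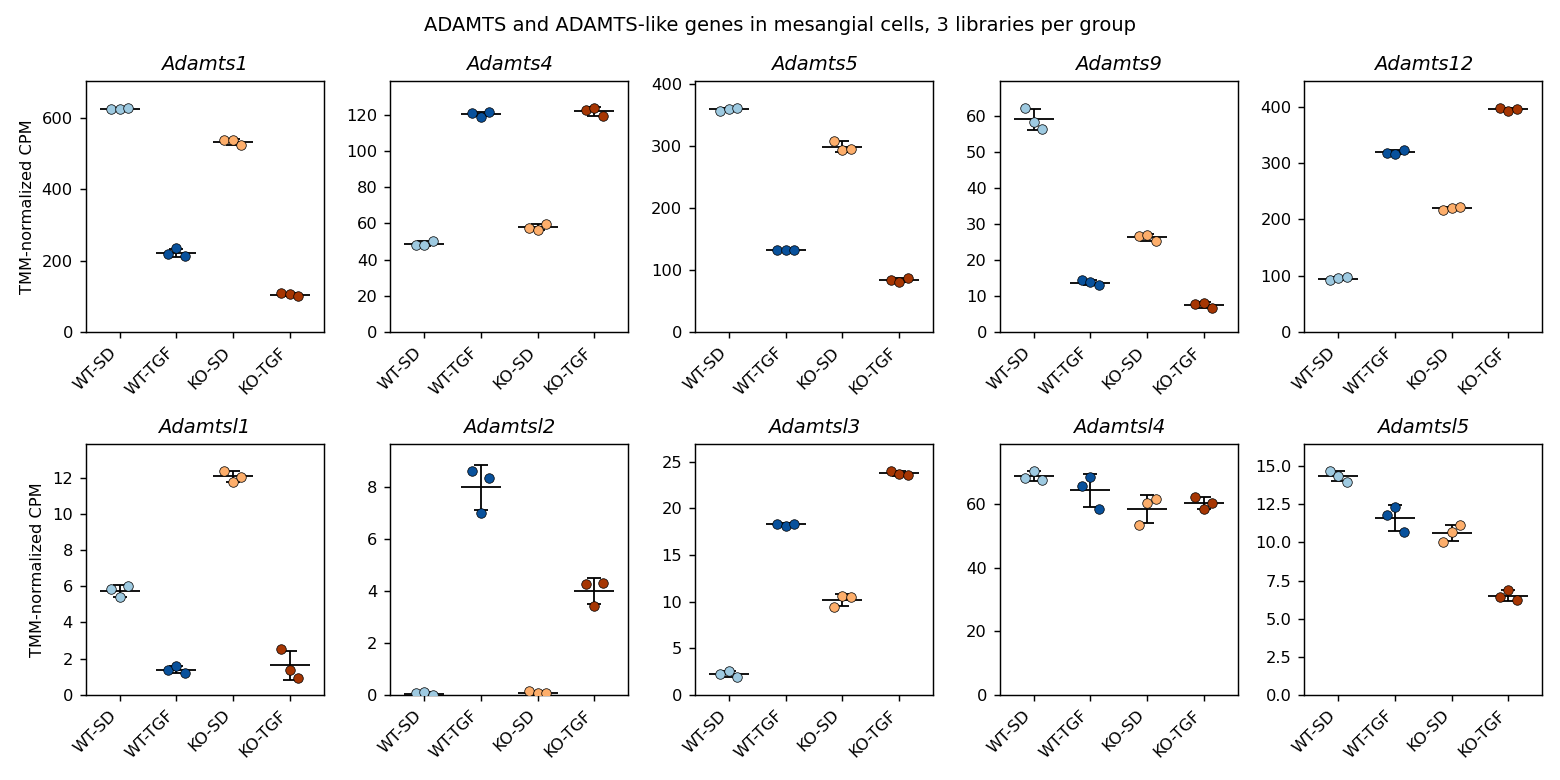
TMM-normalized CPM (reads on a gene as a share of all counted reads, vertical axis, linear from 0, each gene on its own scale) of the 10 members in the 12 libraries, by group (horizontal axis). Points are libraries, and bars the mean and SD of 3 libraries. Adamts1, Adamts5, Adamts9 and Adamtsl1 drop with TGF-β in both genotypes, Adamts4, Adamts12, Adamtsl2 and Adamtsl3 climb, and the groups of Adamtsl4 lie close to each other, between 53.6 and 70.6 CPM.

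Adamts1, a protease of versican that inflammation and growth signals induce in many cells, was the most abundant member in SD. Its levels in WT-SD were 625, 625 and 629 CPM (reads on a gene as a share of all counted reads, with library sizes scaled by TMM), and in WT-TGF 219, 235 and 213 CPM. In KO-SD they were 537, 540.1 and 525 CPM and in KO-TGF 108, 107 and 99.6 CPM. The 4 groups did not overlap, and all 3 KO-TGF libraries were lower than any other library. Adamts1 fell by 1.49 on the log2 scale with TGF-β in WT (SE 0.0299, FDR = 1.20e-27) and by 2.35 in KO (SE 0.0325, FDR = 8.79e-32), and the difference between these responses was -0.86 (SE 0.0438, FDR = 9.10e-16). KO cells had 1.17-fold lower levels than WT cells in SD (FDR = 4.10e-08) and 2.12-fold lower levels after TGF-β (FDR = 2.14e-22).

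Adamts5, the main aggrecan-cleaving protease of mouse cartilage, is the neighbor of Adamts1 on chromosome 16, with 55043 bases between the genes in GRCm38.p6 (chr16:85793827-85803113 and chr16:85858157-85901125, both on the minus strand). The WT-SD libraries were at 358, 359.5 and 362 CPM, against 133, 132 and 133 CPM for WT-TGF. The KO-SD libraries were at 309, 294 and 295 CPM, against 83.2, 80.4 and 87.5 CPM for KO-TGF. Here too the 4 groups were separate and came in the order of those of Adamts1. Adamts5 fell by 1.44 on the log2 scale with TGF-β in WT (SE 0.0284, FDR = 8.56e-28) and by 1.84 in KO (SE 0.0305, FDR = 8.84e-30), with a difference of -0.40 (SE 0.0418, FDR = 8.28e-09). KO cells were lower than WT cells by 0.26 on the log2 scale in SD (log2 fold change -0.26, SE 0.0267, FDR = 6.55e-10) and more so after TGF-β (log2 fold change -0.66, SE 0.0321, FDR = 2.15e-17). Per kb of merged exons, Adamts1 was 3.54 ± 0.0102 times as abundant as Adamts5 in WT-SD (SD, n = 3), 3.41 ± 0.191 in WT-TGF and 3.63 ± 0.0977 in KO-SD, and 2.55 ± 0.206 in KO-TGF. The ratios of WT-SD, WT-TGF and KO-SD overlapped, and the highest KO-TGF ratio (2.70) was below the lowest of the other groups (3.26).

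Adamts9, a protease of versican in the matrix around cells, was lower in KO cells in both conditions. The WT-SD libraries were at 62.3, 58.4 and 56.5 CPM, and those of KO-SD at 26.7, 27.0 and 25.3 CPM. After TGF-β they were 14.3, 13.8 and 13.1 CPM in WT and 7.81, 7.96 and 6.61 CPM in KO. Every KO library was below every WT library of the same condition. TGF-β lowered Adamts9 in WT (log2 fold change -2.1, SE 0.0565, FDR = 2.07e-24) and in KO (log2 fold change -1.82, SE 0.0752, FDR = 1.17e-19). KO against WT was at -1.17 in SD (SE 0.0501, FDR = 1.02e-18) and at -0.88 after TGF-β (SE 0.0852, FDR = 2.59e-10). Adamts9 was the only member with a positive called interaction (0.28, SE 0.102, FDR = 0.0381), and this call was lost in 6 of the 12 fits that left out 1 library (WT-SD replicate 1, WT-TGF replicate 2 or 3, KO-SD replicate 3, KO-TGF replicate 1 or 2), with library sizes not scaled by TMM and without the expression limit, with FDR between 0.0597 and 0.0909. The gene 9530026P05Rik overlaps Adamts9 on the other strand, and the reads were counted by strand.

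Adamts4, the other classic aggrecanase, rose in both genotypes to about the same level. Before treatment its libraries were at 47.9, 48.0 and 50.5 CPM in WT cells and at 57.6, 56.5 and 59.6 CPM in KO cells, and the KO-SD values were all above those of WT-SD. After TGF-β they were at 121, 119 and 121 CPM in WT and at 123, 124 and 119 CPM in KO, and these groups overlapped. The rise was 2.47-fold in WT (log2 fold change 1.30, SE 0.0358, FDR = 3.79e-24) and 2.1-fold in KO (log2 fold change 1.07, SE 0.0355, FDR = 3.70e-22), with a difference of -0.23 (SE 0.0507, FDR = 0.000855). KO cells were 1.19-fold higher in SD (FDR = 2.37e-06). After TGF-β the log2 fold change of KO against WT was 0.019, with a 95% interval from -0.05 to 0.083 (FDR = 0.653). With library sizes not scaled by TMM this value was -0.10 (FDR = 0.00841), with the median of all genes at -0.12.

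Adamts12, a protease with a long series of thrombospondin repeats, rose most of these 5 proteases with TGF-β in WT. Its levels in WT-SD were 92.5, 95.1 and 96.9 CPM, and in WT-TGF 319, 317 and 323 CPM. KO cells had 217, 220 and 222 CPM in SD and 398, 393 and 396 CPM after TGF-β. The groups did not overlap, and KO was above WT in both conditions. The rise was 3.37-fold in WT (log2 fold change 1.75, SE 0.0268, FDR = 1.31e-30) and 1.80-fold in KO (log2 fold change 0.85, SE 0.0249, FDR = 1.65e-23). The difference between these responses was -0.90 (SE 0.0364, FDR = 3.37e-18). KO against WT was 2.32-fold higher in SD (FDR = 6.56e-26) and 1.24-fold higher after TGF-β (FDR = 2.72e-12).

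These opposite changes altered the make-up of the transcripts of these 5 proteases. Levels of different genes were compared as RPKM (CPM per kb of all annotated exons of a gene, merged). Levels, shares and ranks between genes therefore depend on the annotation used. The RPKM of the 5 proteases summed to 174 ± 0.872 in WT-SD and 109 ± 1.57 in WT-TGF (SD, n = 3), and to 162 ± 1.44 in KO-SD and 89.6 ± 1.06 in KO-TGF. Adamts1 and Adamts5 together made up 86.9% ± 0.119 of this sum in WT-SD and 49.5% ± 1.18 in WT-TGF, and 79.1% ± 0.468 in KO-SD and 30.7% ± 0.302 in KO-TGF. The 4 groups did not overlap in this share. Adamts12 rose from 4.98% ± 0.0939 of the sum in WT-SD to 26.8% ± 0.622 in WT-TGF, and from 12.4% ± 0.257 in KO-SD to 40.5% ± 0.518 in KO-TGF. Adamts4 against Adamts5, the pair of aggrecanases, went from a ratio of RPKM of 0.304 ± 0.00752 to 2.04 ± 0.0119 in WT and from 0.434 ± 0.0183 to 3.27 ± 0.201 in KO. These shares and ratios use the counts tested above, are given as a description and leave out the other ADAMTS proteases. Of those, Adamts6 was at 7.85 ± 0.5435 RPKM in WT-SD and 14.5 ± 0.529 in KO-SD. After TGF-β it was at 17.6 ± 0.309 RPKM in WT and 23.5 ± 0.887 in KO.

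**Figure D2:**
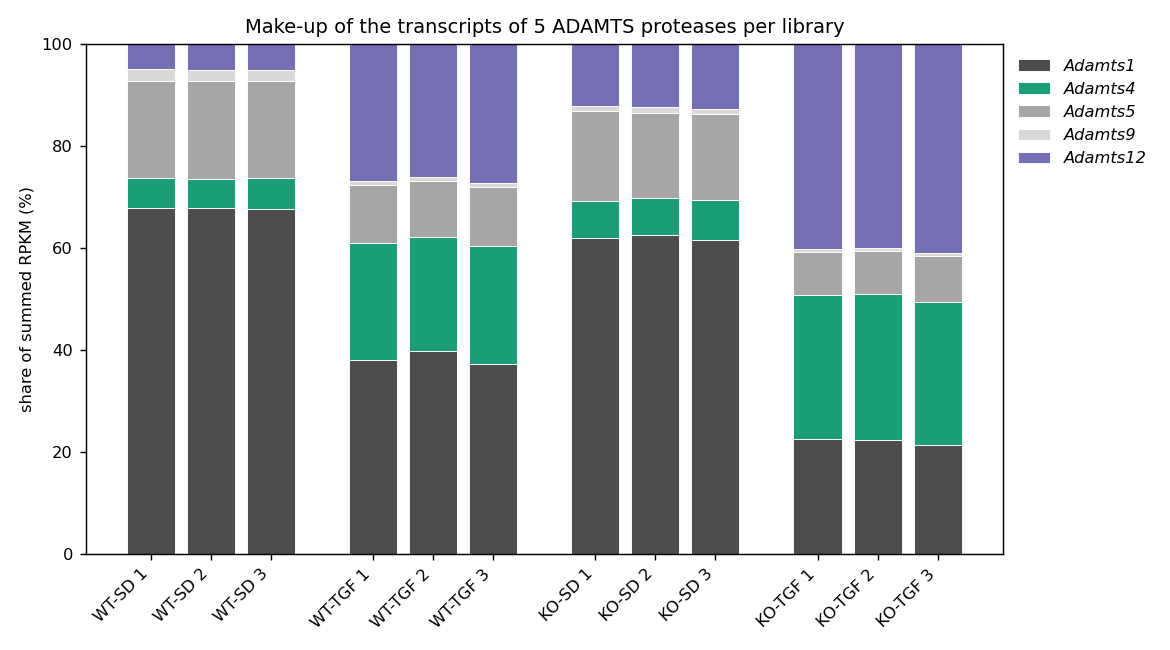
Share of each of the 5 proteases in their summed RPKM (vertical axis, percent, from 0 to 100), in each of the 12 libraries (horizontal axis). Colors stand for genes. Adamts1 (dark) takes 67.8% on average in WT-SD and 22.1% in KO-TGF, where Adamts12 (violet) takes 40.5%.

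Ranked by RPKM among the 10 members, Adamts1 stood first in WT-SD (118 ± 0.410), WT-TGF (41.9 ± 2.13) and KO-SD (101 ± 1.52), and Adamts12 stood first in KO-TGF (36.2 ± 0.239). Adamts4 came second in KO-TGF (25.3 ± 0.488) and then Adamts1 (19.8 ± 0.842), without overlap between neighbors. Adamts6, which is not among the 10, lay between them in KO-TGF (23.5 ± 0.887). Of the ADAMTS-like genes, Adamtsl4 was the most abundant in all 4 groups, between 13.9 ± 1.03 RPKM in KO-SD and 16.4 ± 0.382 in WT-SD. The neighbors in this order whose libraries overlapped were Adamtsl5 and Adamtsl3 in WT-TGF (2.46 ± 0.182 and 2.36 ± 0.0178) and Adamtsl2 and Adamts9 in WT-TGF (1.0 ± 0.11 and 0.913 ± 0.0394) and in KO-TGF (0.50 ± 0.0631 and 0.496 ± 0.0490). The 5 proteases together held 89.6% ± 0.234 of the summed RPKM of the 10 members in WT-SD, 83.7% ± 0.753 in WT-TGF, 89.8% ± 0.665 in KO-SD and 82.1% ± 0.357 in KO-TGF.

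Adamtsl2 binds fibrillin-1 and latent TGF-β binding protein 1, and its mutations cause geleophysic dysplasia, a short-stature disorder with altered TGF-β signaling. It was close to absent in SD and present in every library treated with TGF-β. The WT-SD libraries had 1, 2 and 0 counts and the KO-SD libraries 3, 1 and 1 counts, which is at or under the floor of 3 counts (0.130 to 0.160 CPM). WT-TGF had 183, 157 and 169 counts (8.65, 7.0 and 8.34 CPM) and KO-TGF 80, 64 and 82 counts (4.28, 3.42 and 4.30 CPM). The summed counts of the WT-TGF libraries were 178 times those of WT-SD after scaling for library size, with an exact 95% counting interval from 60.5 to 865, and the ratio in KO was 51.4, with an interval from 21.7 to 160. These intervals overlap and cover counting error only. After TGF-β, KO was 1.99-fold lower than WT (log2 fold change -0.99), and the highest KO library was below the lowest WT library. This is given as a description, since Adamtsl2 passed the expression limit through WT-TGF. The fitted interaction (-1.72, 95% interval -3.76 to 0.33, FDR = 0.253) rests on SD libraries near 0 counts, and no fold change is given between KO-SD and WT-SD, where Adamtsl2 is counted as not called.

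The promoter of Adamtsl2 is shown because no other member gained as much with TGF-β in relation to SD. It was taken from RefSeq (GRCm38.p6, chr2:27079129-27079428, plus strand, 250 bases before to 50 after the start), and the capitals mark the single match to CAGAC, a short SMAD-binding motif, on the reverse strand.
Adamtsl2: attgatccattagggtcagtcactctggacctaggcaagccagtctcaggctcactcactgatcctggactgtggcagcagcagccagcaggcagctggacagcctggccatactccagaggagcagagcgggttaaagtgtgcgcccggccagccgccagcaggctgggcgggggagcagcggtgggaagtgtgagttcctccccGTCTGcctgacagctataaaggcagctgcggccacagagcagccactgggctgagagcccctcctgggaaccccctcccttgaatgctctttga
Promoters were given for 7 of the 10 members, and those of Adamts4, Adamts5 and Adamtsl1 were not analysed here. CAGAC was found on either strand in 2 of the 7 (Adamtsl2, which rose, and Adamtsl5, which fell), and in 49.59% of 32851 promoters of the same length. Neither the AP-1 motif TGANTCA (7.81% of all promoters) nor the SMAD palindrome GTCTAGAC (0.21%) was found in these 7 windows.

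Adamtsl3, also called punctin-2, rose in both genotypes and was higher in KO cells already in SD. Its levels in SD were 2.23, 2.52 and 1.87 CPM for the WT libraries and 9.42, 10.6 and 10.5 CPM for the KO libraries. After TGF-β they were 18.4, 18.1 and 18.4 CPM in WT and 24.1, 23.7 and 23.6 CPM in KO. The 4 groups were separate, and even the lowest KO-SD library was above all WT-SD libraries. The rise was 8.25-fold in WT (log2 fold change 3.04, SE 0.0982, FDR = 2.35e-22) and 2.34-fold in KO (log2 fold change 1.23, SE 0.0699, FDR = 3.93e-16). The difference of the responses was -1.82 (SE 0.131, FDR = 2.50e-12), the only member with a called interaction beyond a fold change of 2, which 2.40% of all genes passed in this direction. KO against WT was 4.58-fold higher in SD (FDR = 5.89e-17) and 1.30-fold higher after TGF-β (FDR = 6.38e-06).

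Adamtsl1, or punctin, had few counts and the opposite pattern with TGF-β. The libraries had 128, 124 and 132 counts in WT-SD and 29, 36 and 24 in WT-TGF, and 270, 244 and 263 in KO-SD and 47, 26 and 18 in KO-TGF. KO-SD was thus the highest group (12.4, 11.8 and 12.1 CPM, against 5.83, 5.39 and 6.02 CPM in WT-SD), and KO-TGF and WT-TGF overlapped. TGF-β lowered Adamtsl1 4.01-fold in WT (log2 fold change -2.0, SE 0.159, FDR = 2.96e-35) and 7.40-fold in KO (log2 fold change -2.89, SE 0.138, FDR = 2.59e-95). These FDRs come from the fit of all genes with a count and are not comparable with those of the other members. The KO-TGF libraries spread widely (1.615 ± 0.809 CPM, SD, n = 3). With DESeq2 the fall in KO had an SE of 0.202 and FDR = 3.36e-44. Leaving out 1 library, it ranged from -3.35 to -2.61 on the log2 scale. The difference between the responses of KO and WT was -0.88 (SE 0.245, FDR = 0.00294), and it was no longer called without KO-TGF replicate 3 (-0.61, FDR = 0.0944). KO against WT was 2.15-fold higher in SD (FDR = 9.74e-27), and 0.22 on the log2 scale after TGF-β, with a 95% interval from -0.21 to 0.65 (FDR = 0.494). Without KO-TGF replicate 1, which had the most counts of its group, the latter value was -0.25 (FDR = 0.551). Sh3gl2 overlaps Adamtsl1 on the same strand, so reads on shared exons could have been left out of both genes.

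Adamtsl5 is a small member that binds fibrillin and heparin. The WT-SD libraries were at 14.7, 14.4 and 14 CPM, and those of WT-TGF at 11.8, 12.3 and 10.7 CPM. The KO-SD libraries were at 10.1, 10.7 and 11.2 CPM, and those of KO-TGF at 6.42, 6.89 and 6.19 CPM. WT-SD was the highest group and KO-TGF the lowest, while WT-TGF and KO-SD overlapped. Adamtsl5 fell with TGF-β by 0.30 on the log2 scale in WT (SE 0.0746, FDR = 0.000575) and by 0.71 in KO (SE 0.0920, FDR = 4.72e-08). The difference of -0.40 (SE 0.119, FDR = 0.0113) was not called with DESeq2 (-0.38, FDR = 0.0692) or without KO-TGF replicate 3 (-0.33, FDR = 0.0655). KO was 1.35-fold lower than WT in SD (FDR = 1.29e-05) and 1.79-fold lower after TGF-β (FDR = 2.69e-09).

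Adamtsl4, which binds fibrillin-1 and is mutated in displacement of the eye lens, varied least. The WT libraries were at 68.2, 70.6 and 67.6 CPM before and at 65.9, 68.8 and 58.4 CPM after TGF-β. The KO libraries were at 53.6, 60.3 and 61.7 CPM before and at 62.4, 58.5 and 60.5 CPM after TGF-β. All KO-SD libraries were below all WT-SD libraries, and the other groups compared overlapped. KO-SD vs. WT-SD was called, at 1.18-fold lower (log2 fold change -0.23, SE 0.05, FDR = 0.00019). The response to TGF-β was at -0.09 in WT (95% interval -0.19 to 0.0023, FDR = 0.0867) and at 0.048 in KO (-0.05 to 0.15, FDR = 0.415), and KO-TGF vs. WT-TGF at -0.09 (-0.19 to 0.0082, FDR = 0.130). The difference between the responses was 0.14 (SE 0.0717, FDR = 0.156). Without KO-SD replicate 1 the response in KO was -0.013 (FDR = 0.822) and that in WT passed the threshold (-0.09, FDR = 0.0363), and with library sizes not scaled by TMM it was -0.15 in KO (FDR = 0.0093), where the median of all genes was -0.23. The response in WT was also called in the fit of only the groups compared (FDR = 0.0292), without WT-TGF replicate 2 (-0.15, FDR = 0.0167) and without KO-TGF replicate 1 (-0.11, FDR = 0.0495), and KO-TGF vs. WT-TGF in the fit of only the groups compared (-0.10, FDR = 0.0404) and without WT-TGF replicate 3 (-0.16, FDR = 0.0111).

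**Figure D3:**
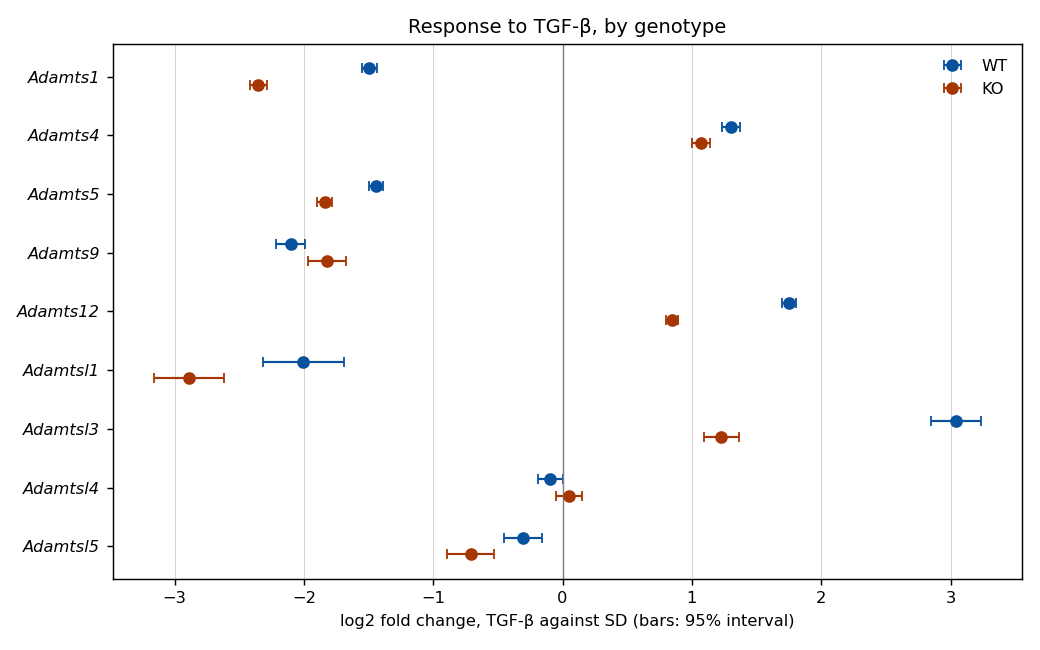
Log2 fold change with TGF-β (TGF-β against SD, horizontal axis, points, with 95% intervals as bars) in WT (blue) and KO (brown) for 9 members (vertical axis); Adamtsl2 is left out because its SD libraries had at most 3 counts. The KO point lies to the left of the WT point for Adamts1, Adamts4, Adamts5, Adamts12, Adamtsl1, Adamtsl3 and Adamtsl5, and to the right for Adamts9 and Adamtsl4, of which Adamtsl4 did not pass the test.

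**Figure D4:**
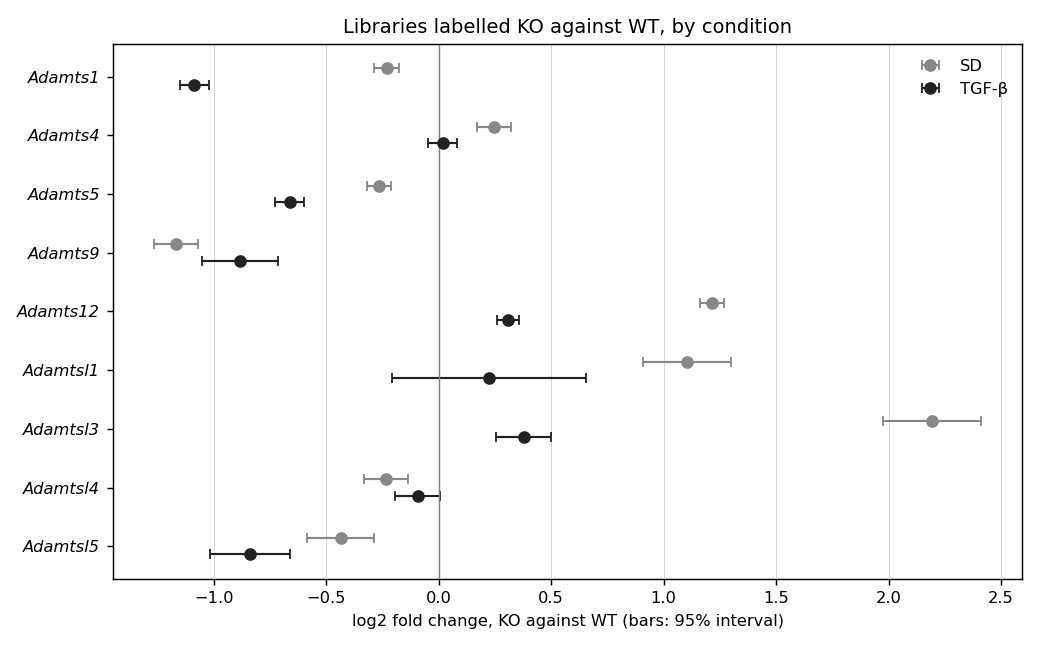
Log2 fold change of KO against WT (horizontal axis, points, with 95% intervals as bars) in SD (grey) and after TGF-β (black) for the same 9 members (vertical axis). The largest positive values are those of Adamtsl3 (2.19), Adamts12 (1.21) and Adamtsl1 (1.10) in SD, and the intervals of Adamts4, Adamtsl1 and Adamtsl4 after TGF-β include 0.

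Markers of other cell types moved with the genotype and the treatment. The summed level of 6 macrophage markers ranged from 25.7 to 27.9 CPM in WT-SD, from 15.6 to 19.3 CPM in WT-TGF, from 2.06 to 2.22 CPM in KO-SD and from 0.801 to 1.44 CPM in KO-TGF, where Adgre1, Ptprc and Itgam were at or under 3 counts. The sum of 6 tubular markers was 68.0 to 75.0 CPM in WT-SD, 17.9 to 19.7 CPM in WT-TGF, 14.4 to 15.9 CPM in KO-SD and 7.03 to 7.43 CPM in KO-TGF, with Epcam and Umod at or under 3 counts in all groups. Slc12a1 of this list went the other way and rose with TGF-β, by 1.26 on the log2 scale in WT and 1.29 in KO. It was also higher in KO than in WT cells (1.83 in SD and 1.85 after TGF-β). Slc12a1 was under the expression limit, had 5 to 10 counts per library in WT-SD and was read from the fit of all genes with a count. The sum of 6 podocyte markers was 440.2 to 447 CPM in WT-SD, 447 to 465 CPM in WT-TGF, 214 to 222 CPM in KO-SD and 203 to 218 CPM in KO-TGF, and the defining Nphs1 was at or under 3 counts throughout. Within this sum, Synpo rose with TGF-β (log2 fold change 0.34 in WT and 0.11 in KO), while Podxl (-0.41 and -0.34) and Wt1 (-0.54 and -1.12) fell. The 6 endothelial markers summed to at most 1.01 CPM and the 5 markers of interstitial fibroblasts to at most 4.29 CPM in any library. The sum of the 8 mesangial markers was 2642 to 2785 CPM in WT-SD, 5909 to 6056 in WT-TGF, 5143 to 5315 in KO-SD and 11360.0 to 11440.0 in KO-TGF. Most of this sum is Acta2 and Tagln, which are also TGF-β targets, and Itga8 went the other way with TGF-β (log2 fold change -0.81 in WT and -2.23 in KO), while Des was lower in KO cells (-3.85 in SD and -4.47 after TGF-β). Itga8 was also read from the fit of all genes with a count, with 11 to 13 counts per library in KO-TGF. Des passed the expression limit only through WT libraries, so that its fold changes are part of how it was selected. The part of these differences between the cell preparations in the results on the ADAMTS genes was not tested.

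Of the other 15 genes of the family, 6 passed the expression limit. With TGF-β, 3 of them were higher and 2 lower in WT, and 2 were higher and 3 lower in KO. Of all genes, 35.9% were higher and 36.5% lower in WT, and 35.0% and 39.0% in KO. Adamts16 was higher in both genotypes (log2 fold change 2.56 in WT and 2.37 in KO), as was Adamts6 (1.17 and 0.69), and Adamts2, which removes the amino propeptide of procollagen, was lower in both (-0.87 and -1.27). In the interaction, 4 of the 6 were called below 0 and none above, against 16.6% and 8.77% of all genes, Adamts6 at -0.47 (FDR = 5.12e-08) and Adamts2 at -0.40 (FDR = 0.00123) among them.

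Of 13 listed substrates of the family, 8 passed the limit, and in SD all 8 were higher in KO cells, where 30.6% of all genes were. Thbs2 passed the limit only through KO libraries, so that its place among these 8 is part of how it was selected. After TGF-β, 6 of the 8 were higher in KO, against 27.3% of all genes. Comp, the substrate of ADAMTS12 named above, stayed under the limit. After TGF-β it had 11 to 21 counts per library in WT and only 2 to 4 in KO, around the floor of 3 counts. The log2 fold change of KO against WT after TGF-β was -2.06 in the fit of all genes with a count (edgeR FDR = 0.000173). Its size rests on these few counts. Versican (Vcan), the shared substrate of Adamts1, Adamts4, Adamts5 and Adamts9, was at 290.2 ± 10.2 CPM in WT-SD, 1038 ± 21.1 in WT-TGF, 1225 ± 49.96 in KO-SD and 2567 ± 19.9 in KO-TGF (SD, n = 3), with a log2 fold change of KO against WT of 2.08 in SD and 1.31 after TGF-β. With TGF-β, 5 of the 8 were higher and 3 lower in WT, against 35.9% and 36.5% of all genes. Vcan rose by 1.84 on the log2 scale in WT and 1.07 in KO, while nidogen-2 (Nid2), a basement membrane protein cleaved by ADAMTS1, changed by -2.97 and -3.41. Decorin (Dcn), a small proteoglycan, was lower with TGF-β (-1.45 and -1.66) and higher in KO cells (2.59 in SD and 2.39 after TGF-β).

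Among inhibitors and cofactors, 6 of 9 passed the limit, and 3 were higher and 3 lower with TGF-β in each genotype. The shares of all genes were 35.9% higher and 36.5% lower in WT, and 35.0% and 39.0% in KO. Timp3, the main tissue inhibitor of ADAMTS4 and ADAMTS5, was at 572 ± 12.6 CPM in WT-SD, 3239 ± 90.1 in WT-TGF, 827 ± 20.4 in KO-SD and 5325 ± 104 in KO-TGF, and rose with TGF-β (log2 fold change 2.50 in WT and 2.69 in KO). Timp1 was also higher (2.24 and 2.52). Fibulin-1 (Fbln1), a cofactor of ADAMTS1, was lower with TGF-β (-0.83 and -1.81) and higher in KO cells in SD (1.52). For maturation, 6 genes were listed, of which 3 were higher and 2 lower with TGF-β in each genotype, against the same shares of all genes. Furin, a convertase that removes the propeptide of many ADAMTS proteases, was higher by about the same amount in both (1.02 and 1.08), while the convertases Pcsk5 and Pcsk6 were lower in KO cells, Pcsk5 by -2.88 in SD and -2.34 after TGF-β and Pcsk6 by -2.06 and -2.12.

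Of 9 microfibril genes, 8 passed the limit. With TGF-β, 6 were higher and 2 lower in WT, where 35.9% and 36.5% of all genes were. In KO, 5 were higher and 3 lower, where 35.0% and 39.0% of all genes were. Fibrillin-1 (Fbn1) was higher with TGF-β (1.49 in WT and 1.46 in KO) and higher in KO cells (0.51 in SD and 0.47 after TGF-β). Ltbp1, a carrier of latent TGF-β, was higher in KO by 1.19 in SD and 0.91 after TGF-β. Mfap5, a microfibril glycoprotein, was lower in KO by -1.48 in SD and -1.59 after TGF-β. It passed the limit only through WT libraries, so that these calls are part of how it was selected. All log2 fold changes given above for the other family members and partner genes passed FDR <5% in the same edgeR fit, except that Comp was read from the fit of all genes with a count.

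The gene pattern most like that of each member was sought among all genes past the limit, as the smallest root mean square (RMS) difference of centered log2 CPM over the 12 libraries, a description with no test. The libraries fall into 4 groups, which these values share. Adamts1 was followed most closely by the cholesterol exporter Abca1 (RMS 0.103) and by Ptprd (0.108), and Adamts5 by Lgals3bp (0.0725) and by the TGF-β co-receptor Tgfbr3 (0.118). Adamts4 was nearest to Ppa1 (0.0437) and Nav1 (0.0647), Adamts9 to Atoh8 (0.158) and Atp1b1 (0.181), and Adamts12 to the matrix gene Fbln2 (0.139) and to Angpt4 (0.167). Adamtsl2 was nearest to the cytokine Il11 (0.455) and to Ctsw (0.504), Adamtsl3 to the collagen gene Col8a2 (0.276) and to Slc16a3 (0.396), Adamtsl4 to Mapk8ip3 (0.0549) and Kat5 (0.0606), and Adamtsl5 to Itpripl1 (0.0724) and Plxdc2 (0.0750). The members' own RMS about their means ranged from 0.114 for Adamtsl4 to 2.665 for Adamtsl2. A small difference for a member that hardly varied is therefore not a closer match, and these values do not rank the members. Among the members themselves, Adamts1 and Adamts5 were the closest pair (0.215), followed by Adamts1 and Adamts9 (0.343) and by Adamts4 and Adamts12 (0.362).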

How the data were processed

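RNA-seq libraries of WT and lncMGC-KO5 MMC in SD or with TGF-β (12 libraries, 4 groups of 3) were used. The values deposited by the authors are raw counts, whole numbers of reads per RefSeq gene. Per the methods of the study, reads were aligned to mm10 with TopHat and counted by strand with HTSeq, without poor alignments; multiply aligned reads are not counted. Reads not assigned to 1 gene (outside exons, multiply aligned or ambiguous, 22.2% to 27.4% of each library) were left out of library sizes and tests. The quasi-likelihood test of edgeR 4.0.16 in R 4.3.3 (TMM, Benjamini-Hochberg) was run in 1 fit of all 12 libraries with 4 group means, over the 11477 genes with RPKM >1 in at least 1 library. Exon lengths came from GENCODE vM21 (24407 genes matched by symbol, 303 by older symbol or Ensembl ID and 520 not). Called genes had FDR <5%. The SE of a log2 fold change is its size divided by the square root of the test's F, and intervals are 1.96 SE on either side. Share of RPKM was given over the 5 proteases in addition to the 10 members. Replicates shared numbers between groups, and the deviations of same-numbered libraries correlated only weakly (-0.03 to 0.087). The procedure was run on simulated counts with the same spread for all genes and changes only in genes with many counts. It therefore does not show how the test does for members with few counts. Zinc-binding stretches were found in GENCODE coding sequences, promoters in a RefSeq table. The alternatives were library size alone, RLE size factors, DESeq2 1.42.0, the likelihood ratio test, no filter, a CPM filter (>1 in at least 3 libraries), fits restricted to the groups compared, a replicate block and leaving out each library. The 10 members, the lists of partners and markers and the tests were chosen with earlier results of these data known. Named genes were the members, genes taken from those listed with FDR <5% and fold change >2 in any pairwise comparison (not all of which are named), defining markers, and the 2 genes nearest in pattern to each member past the RPKM limit. Intervals of counts cover counting error only.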

Additional observations from a re-analysis of the deposited data

Results flagged for a closer look

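The response to TGF-β differed between WT and KO in 8 of the 10 members by the interaction term of the edgeR quasi-likelihood fit (FDR <5%, Benjamini-Hochberg over all genes tested), where 25.4% of all genes passed this test. The KO response minus the WT response was -0.86 on the log2 scale for Adamts1, -0.40 for Adamts5, -0.23 for Adamts4, -0.90 for Adamts12, -0.88 for Adamtsl1, -1.82 for Adamtsl3 and -0.40 for Adamtsl5. It was 0.28 for Adamts9. For Adamts1, Adamts5, Adamtsl1 and Adamtsl5 the fall was deeper in KO, and for Adamts4, Adamts12 and Adamtsl3 the rise was smaller in KO. Adamts12, Adamtsl1, Adamtsl3 and Adamts4 were already higher in KO-SD than in WT-SD.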

How the results depend on the processing

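Each log2 fold change of the 10 members was recomputed under 20 alternatives, 12 of which left out 1 library, except that the interaction was not fitted on only the groups compared, and 967 of the 990 values kept their direction and their side of the threshold. With library size alone, the median of all genes moved to -0.16 in WT-TGF vs. WT-SD, -0.23 in KO-TGF vs. KO-SD and -0.12 in KO-TGF vs. WT-TGF, the direction of Adamtsl4 in KO-TGF vs. KO-SD turned to -0.15 and that of Adamts4 in KO-TGF vs. WT-TGF to -0.10, and Adamtsl4 passed the threshold in WT-TGF vs. WT-SD (-0.25) and in KO-TGF vs. WT-TGF (-0.21), as it did in both with only the groups compared (-0.10 in each) and in 3 and 1 of the fits that left out 1 library. Members called above 0 in the interaction numbered 0 with library size alone and 0 without a filter, and between 0 and 1 when 1 library was left out, since Adamts9 was the only one. Members called below 0 in the interaction numbered between 5 and 7, and the calls of Adamtsl1 and Adamtsl5 rested on KO-TGF replicate 3. Leaving out 1 library, Adamtsl4 in KO-TGF vs. KO-SD ranged from -0.013 (without KO-SD replicate 1) to 0.091, and Adamtsl1 in KO-TGF vs. WT-TGF from -0.25 (without KO-TGF replicate 1) to 0.50. The cause was not tested. With the replicate block, the number of called members was 4 higher and 5 lower in WT-TGF vs. WT-SD, and no call changed. The correlation of deviations between same-numbered libraries was -0.03 to 0.087 over 18 pairs (median 0.023), none above 0.1. Between libraries with different numbers it was -0.095 to 0.039 over 36 pairs (median -0.0091). Same-numbered libraries thus deviated together only weakly. Since the deviations are taken from group means, the values for different numbers are tied to those for same numbers and are no separate check. Counts at or under 3 limit Adamtsl2 in SD.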

Other observations

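Some other family members stayed under the expression limit but differed between groups in the fit of all genes with a count. Adamts15, another proteoglycan-cleaving protease, had between 41 and 48 counts in the WT-SD libraries, 2 to 3 in WT-TGF, 2 to 3 in KO-SD and 0 to 1 in KO-TGF. Adamts8 had 1 to 8 counts in WT-SD and 18 to 29 in WT-TGF, but 1 in every KO-SD library and 0 to 1 in KO-TGF, so that it was above the floor of 3 counts in every library only in WT-TGF. Adamts3, which is related to Adamts2 and Adamts14, was at 3.16 ± 0.437 CPM in WT-SD, 1.77 ± 0.322 in WT-TGF, 2.13 ± 0.534 in KO-SD and 0.886 ± 0.17 in KO-TGF (SD, n = 3). Adamts14 passed the limit and was higher in KO than in WT in SD (log2 fold change 0.79, edgeR FDR = 1.07e-09) and after TGF-β (0.84, FDR = 3.67e-08); it was named after its values were seen.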
